A study of Rattus norvegicus with 6 samples.

Results

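The complement genes described here are 10 genes whose probes were found by name on the array: the components C1qa, C2, C3 and C5, the enzymes of the alternative pathway Cfb and Cfd, the receptor C5ar1, and the regulators C4bpa, C4bpb and Cfi. They were taken from the probe names with the endings for predicted or mapped genes removed and older synonyms accepted, so that C5ar1 was found under C5r1 and C5 under a provisional rat gene name. The 10 genes had 13 probes, all of which passed the filter on dim probes, out of 25224 features tested. The rule goes by probe name and not by level, and the list itself was drawn up with earlier results of these data known. RNA came from right lungs of male Wistar rats, 9 weeks old at the start, that had breathed clean air (the control), nickel oxide in ultrafine particles (NiO) or C60 fullerene, carbon in closed cages, for 6 hours a day, 5 days a week, during 4 weeks. NiO is named as the positive control of the study. The lungs were perfused with saline before they were taken, 3 or 33 days after the last exposure, and the later time is called 1 month. The aerosol concentrations are not given in the sources used here.

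Complement is a cascade of plasma and cell-surface proteins that marks particles and microbes for uptake and calls in white blood cells. C1q starts the classical pathway, in which C2 and C4 form the enzyme that cuts C3. Factors B and D build the corresponding enzyme of the alternative pathway, C5 is then cut to C5a and C5b, and C5ar1 on neutrophils and macrophages reads C5a. C4b-binding protein and factor I break the cascade off. Most of these proteins in blood are made by the liver, but lung epithelial cells and macrophages transcribe many of the genes as well.

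Each array measured these genes with 60-base probes, and the probes on which the results below turn are printed 5′ to 3′, in lower case throughout because no stretch of them is singled out. Per the probe annotation in the deposited files, the grid used the rat build rn4, and the positions given are of that build. C2 (chr20:4071504-4071563, plus strand) and Cfb (chr20:4076976-4077119, plus strand, 60 bases over a stretch of 144) are neighbours whose levels followed different courses between the times. C3 (chrUn:64513437-64513496, minus strand) and C4bpb (chr13:43606462-43606521, minus strand) are shown for their large differences at 3 days. C1qa (chr5:155662578-155662637 and chr5:155662767-155662826, minus strand) and C5 (chr3:14031763-14031822, chr3:14065920-14065979 and chr3:14046988-14047047, minus strand) are shown because they had more than 1 probe. Exon numbers were not looked up, since no annotation of rn4 was used here.
C2: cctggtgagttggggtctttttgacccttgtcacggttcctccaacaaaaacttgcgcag
Cfb: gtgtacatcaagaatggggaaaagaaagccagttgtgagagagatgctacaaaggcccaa
C3: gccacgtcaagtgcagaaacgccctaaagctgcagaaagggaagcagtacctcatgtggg
C4bpb: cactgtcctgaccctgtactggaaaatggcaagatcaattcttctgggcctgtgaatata
C1qa, A_44_P487761: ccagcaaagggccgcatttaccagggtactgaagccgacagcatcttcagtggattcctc
C1qa, A_44_P487764: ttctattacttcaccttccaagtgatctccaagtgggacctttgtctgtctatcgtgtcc
C5, A_44_P220252: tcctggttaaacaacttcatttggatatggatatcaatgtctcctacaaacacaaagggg
C5, A_44_P266963: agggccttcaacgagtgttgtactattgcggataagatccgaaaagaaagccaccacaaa
C5, A_44_P485258: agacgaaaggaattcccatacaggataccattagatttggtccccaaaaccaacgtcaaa

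The comparisons used 21 arrays. The 3-day groups had 4 NiO, 3 control and 2 C60 arrays, and each 1-month group had 4. A level is log2 of the processed probe signal minus the array's 75th percentile, so 0 is the 75th percentile of that array, and levels of different probes cannot be set against each other. The number of arrays limits the precision. Between 57.4 and 78.3% of an array's spots stood well above background, and the share was lowest on the 2 C60 arrays used at 3 days. At 1 month it was 71.3 to 78.3% in control, above 68.2 to 70.3% after C60 and 67.5 to 69.1% after NiO. Both 1-month comparisons with control rest on these control arrays. The 10 genes' main probes were well above background on all 21 arrays and were not saturated. All 5 lung-defining genes (Sftpc, Ager, Scgb1a1, Cldn18 and Cdh5) were well above background in every group. Within the NiO group at 3 days, arrays 2 and 3 stood apart from array 1 (Pearson r across features 0.951 and 0.946, against 0.982 for arrays 1 and 4), and counts are therefore also given without them. The 1-month control arrays also differed among themselves, with r of 0.962 for arrays 2 and 3 and 0.967 for arrays 1 and 3, while the C60 and NiO arrays of that time were at 0.989 or above. The labels do not say that an array is 1 rat, and p-values measure the spread between arrays. Slide and exposure cannot be told apart, because a slide carried a single group (6 slides in all). The same holds for scan day and time. In whole-lung RNA, a change in the number of cells of a type and a change in RNA per cell cannot be told apart.

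At 3 days after NiO, 7 of the 10 genes were higher than in control by the limma test (adjusted p under 0.05 over all features), and none was lower. Of all features, 11.0% were called higher and 7.81% lower in that comparison. C3, C4bpa, C4bpb, C1qa, C5, Cfb and C5ar1 rose, and C2, Cfd and Cfi did not pass the test. The median log2 fold of the 10 genes was 0.83, beside 0.04 over all features. For 6 of them the NiO arrays all lay above all control arrays, which held for 12.8% of all features. Without NiO arrays 2 and 3, 6 of the 7 calls remained, and C5ar1 was the exception; 3.95% of all features were then called higher. The share of all features called higher moved with single arrays: it was 22.1, 6.32 and 5.84% when NiO arrays 1, 2 and 3 were left out in turn, and 5.16, 6.81 and 6.22% for control arrays 1, 2 and 3. Of the 10 genes, 6 or 7 were called in each of these settings. Median scaling and a fit of the compared groups alone each lost C5 and C5ar1, where 6.66 and 2.22% of all features were called higher.

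At 1 month after NiO, 6 of the 10 genes were higher than in control and none was lower, while 11.9% of all features were called higher and 18.9% lower. C2 now led, followed by C4bpa, C3, C5, C5ar1 and Cfb. C1qa, C4bpb, Cfi and Cfd did not pass the test. The median log2 fold of the 10 genes was 0.57, beside -0.12 over all features. These 6 genes were also those in which all NiO arrays lay above all control arrays, against 15.2% of all features. The share of all features called higher was 7.11% when control array 2 was left out, 7.93 and 7.85% for NiO arrays 2 and 3, and 30.5% with median scaling. Each of these settings called 6 or 7 of the 10. A fit of the compared groups alone lost C3 and Cfb, where it called 10.9% of all features higher. After C60 at 3 days, limma called 0 of the 10 genes, where 4.93% of all features were called in either direction, and 0 of the 10 had an unadjusted p under 0.05. Both C60 arrays lay above all control arrays for C4bpb and C5 and below them for C1qa and Cfd, which held for 20.2% and 24.8% of all features. At 1 month after C60, 1 of the 10 genes, C2, was called higher, where 7.29% of all features were. C2 and Cfb were the genes with all C60 arrays above all control arrays, against 11.4% of all features.

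**Figure D1:**
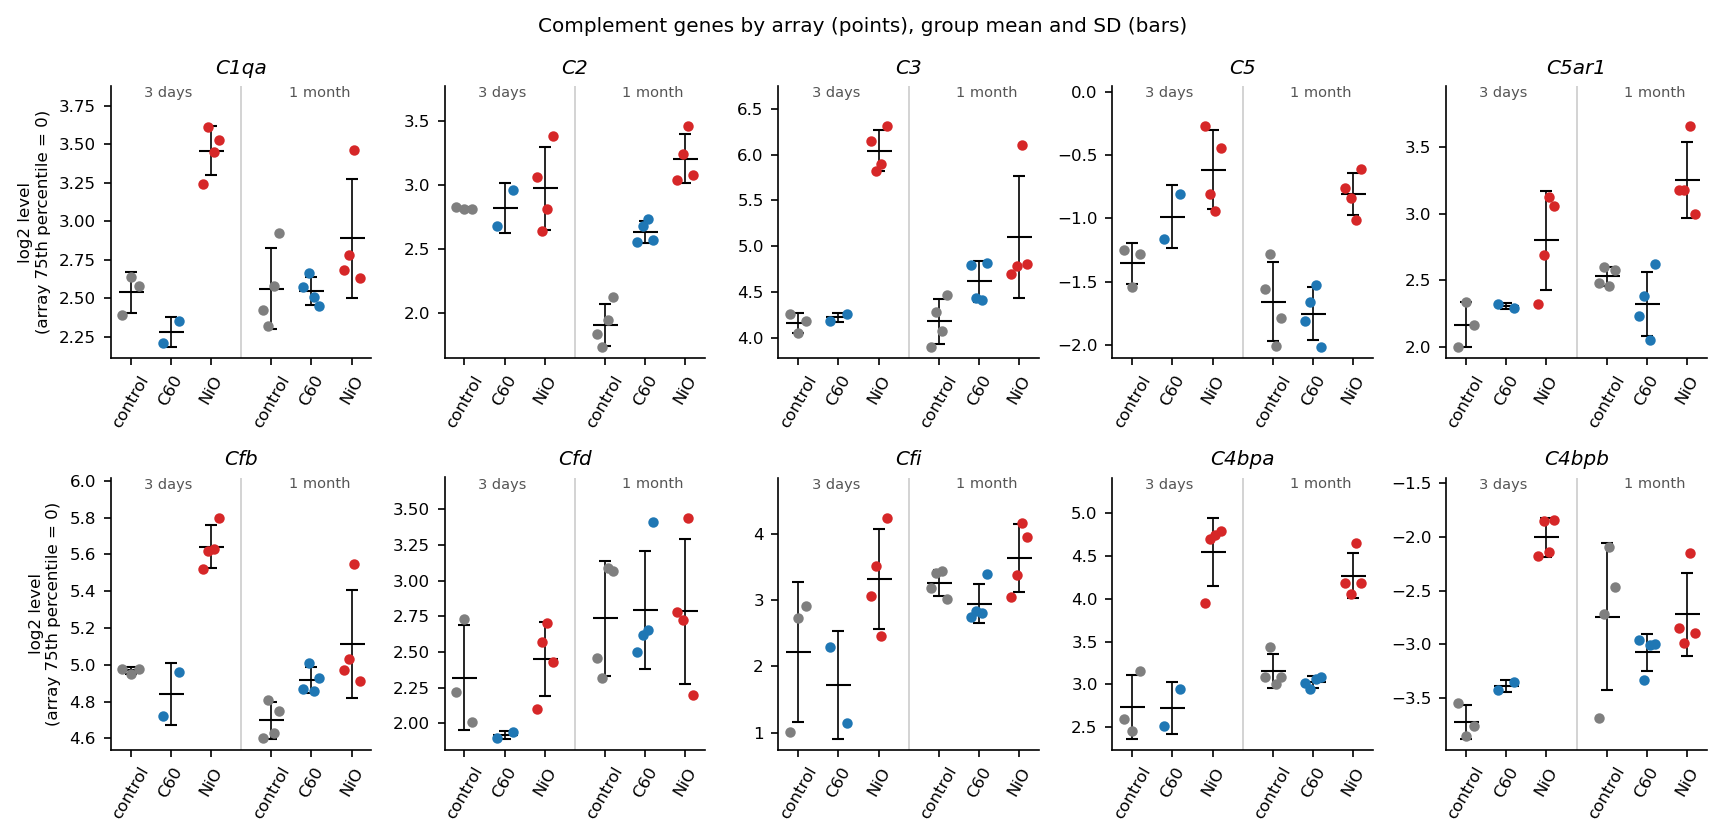
Log2 level of each of the 10 genes on each array (points), with the group mean and SD (bars), for control, C60 and NiO at 3 days (left of the line in each panel) and 1 month (right). The 0 of the vertical axis is the 75th percentile of each array, and the axes differ between panels. The NiO arrays at 3 days lie apart from control for C3, C4bpa, C4bpb, C1qa, Cfb and C5, and at 1 month C2 is lowest in control.

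C1qa encodes the A chain of C1q, the recognition molecule of the classical pathway, and is made mainly by macrophages. At 3 days its log2 levels were 2.39, 2.64 and 2.58 in control, 2.21 and 2.35 after C60, and 3.24, 3.61, 3.45 and 3.53 after NiO. NiO did not overlap with the other groups, and both C60 arrays lay below all control arrays. At 1 month they were 2.42, 2.32, 2.58 and 2.92 in control, 2.57, 2.66, 2.51 and 2.45 after C60, and 2.68, 2.78, 3.46 and 2.63 after NiO, where array 3 alone was above all controls. C1qa rose by a log2 fold of 0.92 (SE 0.17, adjusted p = 0.00194) at 3 days after NiO. At 1 month the difference was 0.33 (SE 0.16, 95% interval -0.01 to 0.67, adjusted p = 0.126), which passed the test with normexp background correction (0.56, adjusted p = 0.0112), with median scaling (0.67, adjusted p = 0.00471) and without control array 4 (0.45, adjusted p = 0.0468). Without NiO array 3 it was 0.14 (adjusted p = 0.441). The second probe gave 1.14 (SE 0.20, adjusted p = 0.00102) at 3 days and 0.45 (SE 0.18, adjusted p = 0.0704) at 1 month, the same calls as the first. For C60 at 3 days it gave 0.01 (SE 0.24), where the first gave -0.26. Its C60 arrays, at 1.60 to 1.76, lay within the control range of 1.51 to 1.76.

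C2 encodes the protease that, bound to C4b, cuts C3 in the classical and lectin pathways. Its log2 levels at 3 days were 2.83, 2.81 and 2.81 in control, 2.68 and 2.96 after C60, and 3.06, 2.64, 2.81 and 3.38 after NiO. The groups overlapped at that time, and the NiO arrays spread over a range that held both others. At 1 month C2 stood at 1.83, 1.73, 1.94 and 2.12 in control, 2.55, 2.68, 2.73 and 2.57 after C60, and 3.04, 3.24, 3.46 and 3.08 after NiO. The 3 groups formed separate steps with no overlap, control lowest and NiO highest.

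The log2 fold of C2 after NiO was 0.16 (SE 0.15, 95% interval -0.16 to 0.47, adjusted p = 0.472) at 3 days and 1.30 (SE 0.14, adjusted p = 2.83e-05) at 1 month. The difference between these effects, 1.14 (SE 0.20, adjusted p = 0.00147), was called. It went with a change in the control arrays, which fell by 0.91 between the times (SE 0.15, adjusted p = 0.000142), while the mean level after NiO was 2.97 at 3 days and 3.21 at 1 month. Between the control times 11623 of 25224 features were called, so such a change is not particular to C2. C60 raised C2 over control by 0.73 (SE 0.14, adjusted p = 0.00304) at 1 month. The C60 effect differed between the times by 0.72 (SE 0.23, adjusted p = 0.051), just outside the threshold. It passed without array 4 of the 1-month control (0.79, adjusted p = 0.0382), with all 4 C60 arrays of the 3-day group (0.81, adjusted p = 0.00973), with median scaling (1.05, adjusted p = 0.0196) and without NiO arrays 1, 2 or 4 of the 3-day group (0.72, adjusted p = 0.042, 0.0341 and 0.027), which belong to neither group compared. C4 is the partner of C2 in the enzyme. C4a stood at 4.01, 3.80 and 3.58 in control at 3 days and at 2.30, 1.64, 2.39 and 2.27 at 1 month, a difference of -1.65 (SE 0.25, adjusted p = 5.75e-05). Its means were also lower at 1 month than at 3 days after C60 (2.52 against 3.94) and after NiO (3.0 against 3.52). For C2 these means were 2.63 against 2.82 after C60 and 3.21 against 2.97 after NiO. C4a was higher after NiO than in control at 1 month by 0.86 (SE 0.23, adjusted p = 0.0109).

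C3 is the component on which all pathways meet; its fragments coat particles and feed the amplification loop. Its log2 levels at 3 days were 4.26, 4.05 and 4.19 in control, 4.19 and 4.26 after C60, and 6.15, 5.82, 5.90 and 6.31 after NiO. The control and C60 arrays overlapped, and every NiO array lay above them. At 1 month C3 stood at 3.90, 4.28, 4.08 and 4.47 in control, 4.80, 4.44, 4.41 and 4.82 after C60, and 4.70, 4.79, 6.10 and 4.81 after NiO. Here 3 NiO arrays lay between 4.70 and 4.81, within the C60 range, and array 3 lay at its 3-day level.

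C3 rose after NiO by a log2 fold of 1.88 (SE 0.26, adjusted p = 0.000112) at 3 days, the largest of the 10 genes, which is a 3.68-fold level. At 1 month it was higher by 0.92 (SE 0.24, adjusted p = 0.00962), and by 0.59 (adjusted p = 0.0152) without NiO array 3. With a fit of the compared groups alone, the call at 1 month was lost (0.92, adjusted p = 0.0579). The NiO effect was smaller at 1 month than at 3 days by 0.96 (-0.96, SE 0.35, adjusted p = 0.0396). That call held in 14 of 30 settings. Without array 3 of NiO at 1 month the difference was -1.29 (adjusted p = 0.00116), with median scaling it was -0.44 (adjusted p = 0.343), and the call was lost without control arrays 1, 2 or 3 or NiO arrays 3 or 4 at 3 days, and without control arrays 2 or 4 or NiO arrays 1, 2 or 4 at 1 month, with adjusted p between 0.0506 and 0.0793. After C60 the difference at 1 month was 0.44 (SE 0.24, adjusted p = 0.192). It passed the test with median scaling (0.74, adjusted p = 0.0308) and without NiO array 3 (0.44, adjusted p = 0.0397), which belongs to neither group compared.

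Among 11973 named features, those whose levels over the 21 arrays were most like C3 were Cd177 (Pearson r = 0.959), a neutrophil surface protein, Cfb (0.933) and Mmp7 (0.932), a matrix protease of epithelial cells. These values describe arrays that share 6 slides, and with group means taken out they were 0.833, 0.813 and 0.861. Of the neutrophil markers, 7 of 10 were measured. Their summed level ranged from 9.82 to 11.0 in control, 8.64 to 10.7 after C60 and 46.7 to 64.7 after NiO at 3 days. At 1 month it ranged from 8.41 to 12.5 in control and 11.2 to 15.6 after C60, and it was 27.4, 26.1, 77.4 and 20.5 on the 4 NiO arrays. Array 3 was thus the highest NiO array of that time for this sum, as it was for C3. The sum adds linear levels, so the brightest markers weigh most. Cd177 and Lcn2 had mean log2 levels of 4.17 and 5.07 after NiO at 3 days. At 3 days 2 of the 7 rose, Cd177 by 4.47 (SE 0.47, adjusted p = 8.77e-06) and Lcn2, an iron-binding protein that epithelium also makes, by 3.28 (SE 0.38, adjusted p = 2.21e-05), and the median of the list was -0.12. At 1 month the same 2 were called higher after NiO, Cxcr2 was called lower, and the median was 0.25. The part of these cells in the C3 levels was not tested.

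**Figure D2:**
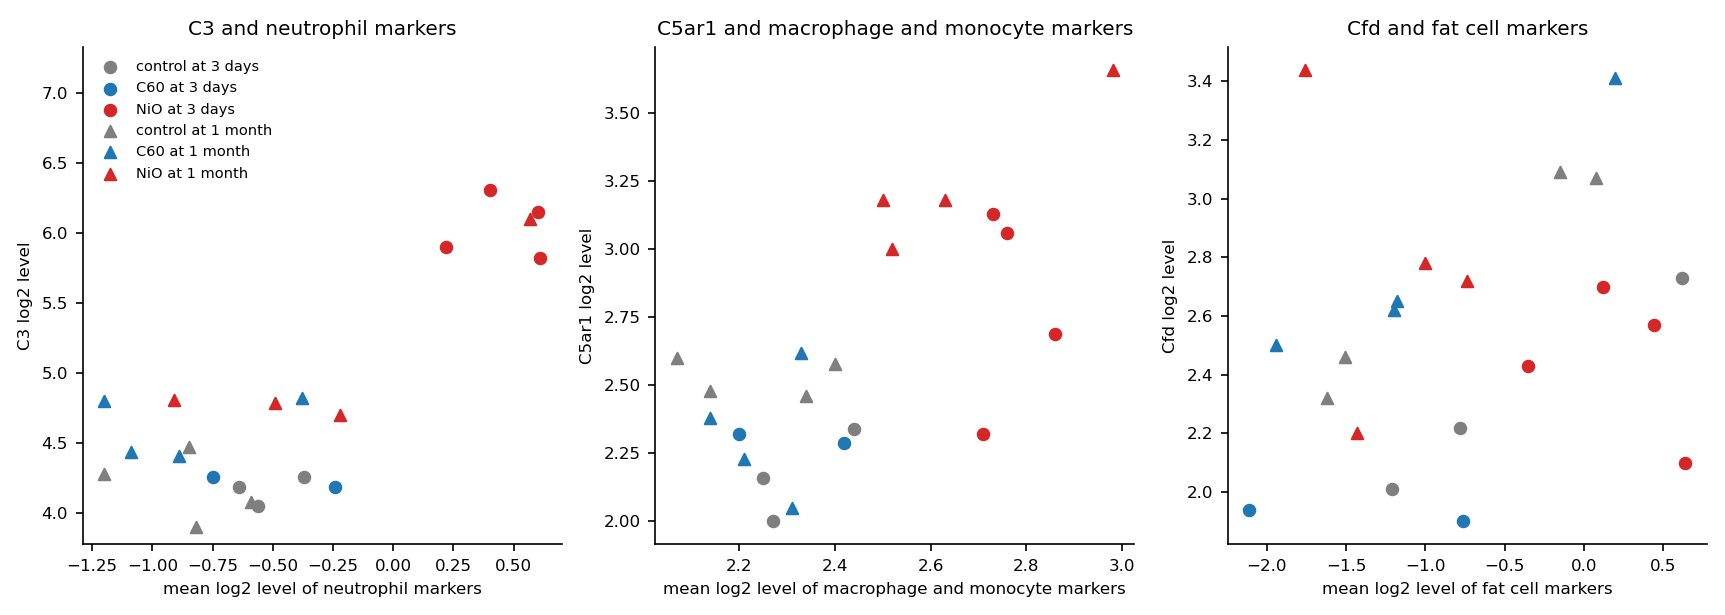
Log2 level of C3, C5ar1 and Cfd on each of the 21 arrays (vertical axes) against the mean log2 level of the neutrophil, macrophage and monocyte, and fat cell markers on the same array (horizontal axes); circles are 3 days and triangles 1 month, and colours give the exposure. NiO array 3 at 1 month, at 6.10 for C3 and 3.66 for C5ar1, lies near or beyond the NiO arrays of 3 days in the first and second panels, and Cfd varies within groups.

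Factor B, encoded by Cfb, is the protease that cuts C3 in the alternative pathway. At 3 days Cfb levels were 4.98, 4.95 and 4.98 in control, 4.72 and 4.96 after C60, and 5.52, 5.62, 5.63 and 5.80 after NiO. The control arrays lay close together, and NiO was separate from both groups. At 1 month they were 4.60, 4.81, 4.63 and 4.75 in control, 4.87, 5.01, 4.86 and 4.93 after C60, and 4.97, 5.03, 5.55 and 4.91 after NiO. Both exposed groups then lay above all control arrays, and array 3 of NiO was again the highest. The log2 fold after NiO was 0.67 (SE 0.13, adjusted p = 0.00202) at 3 days and 0.42 (SE 0.12, adjusted p = 0.0142) at 1 month. At 1 month it was 0.28 (adjusted p = 0.0417) without NiO array 3, and the call was lost with normexp background correction (0.29, adjusted p = 0.0611) and with a fit of the compared groups alone (0.42, adjusted p = 0.0671). C60 gave 0.22 (SE 0.12, adjusted p = 0.18) at 1 month, and 0.53 (adjusted p = 0.00998) with median scaling. On the current assembly (GRCr8) C2 and Cfb lie next to each other on chromosome 20, and their folds after NiO were 0.16 and 0.67 at 3 days and 1.30 and 0.42 at 1 month.

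Cfd encodes factor D, the protease that activates factor B; fat tissue is a rich source of it. No comparison called it. Its levels at 3 days ranged from 2.01 to 2.73 in control, 1.90 to 1.94 after C60 and 2.10 to 2.70 after NiO. At 1 month they ranged from 2.32 to 3.09, 2.50 to 3.41 and 2.20 to 3.44 in the same order. The log2 fold after NiO was 0.13 (SE 0.28, 95% interval -0.46 to 0.73, adjusted p = 0.765) at 3 days and 0.05 (SE 0.26, 95% interval -0.50 to 0.60, adjusted p = 0.898) at 1 month, so that changes of up to 0.6 or 0.73 on this scale lie within the intervals. The summed level of 7 measured fat cell markers of 10 varied within groups too: it was 4.28, 15.8 and 3.41 on the 3-day control arrays, where Cfd was 2.22, 2.73 and 2.01, and 10.6 on array 4 of C60 at 1 month against 2.59 to 4.09 on the other 3, where Cfd was 3.41 against 2.50 to 2.65. NiO array 1 at 3 days had 15.4 for the markers and 2.10 for Cfd, and NiO array 3 at 1 month had 5.18 and 3.44. The markers' part in the Cfd values was not tested.

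C5 gives rise to C5a, which attracts neutrophils, and to C5b, which starts the membrane attack complex. The level of its brightest probe at 3 days was -1.25, -1.54 and -1.28 in control, -1.16 and -0.81 after C60, and -0.27, -0.81, -0.94 and -0.44 after NiO. NiO lay above control without overlap and overlapped with C60. At 1 month it was -1.56, -1.28, -2.01 and -1.79 in control, -1.81, -1.66, -1.53 and -2.02 after C60, and -0.76, -0.84, -1.01 and -0.61 after NiO. NiO was then above every control and C60 array, and C5 was the gene in which NiO array 3 was the lowest of its group. The log2 fold after NiO was 0.74 (SE 0.19, adjusted p = 0.0123) at 3 days and 0.85 (SE 0.17, adjusted p = 0.00244) at 1 month, and the difference of 0.11 between the times (SE 0.25, 95% interval -0.42 to 0.65) did not pass the test (adjusted p = 0.739).

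The other C5 probes gave 0.55 (SE 0.17, adjusted p = 0.0321) and 0.63 (SE 0.26, adjusted p = 0.0938) at 3 days and 0.77 (SE 0.16, adjusted p = 0.00252) and 0.84 (SE 0.24, adjusted p = 0.016) at 1 month. All 3 probes gave higher signal after NiO at both times, and 1 of them missed the threshold at 3 days. For C60 at 3 days the brightest probe gave 0.37 and the other probes -0.44 and -0.51, none of which passed the test; the last was not well above background on C60 array 1. The 3-day call of the brightest probe was lost with median scaling (0.56, adjusted p = 0.0934), with a fit of the compared groups alone (0.74, adjusted p = 0.0971) and without control array 2 (0.65, adjusted p = 0.0565).

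C5ar1 encodes the receptor for C5a on neutrophils, monocytes and macrophages. Its log2 levels at 3 days were 2.00, 2.34 and 2.16 in control, 2.32 and 2.29 after C60, and 2.32, 2.69, 3.13 and 3.06 after NiO. NiO array 1 lay within the control range and the other 3 above it. At 1 month C5ar1 stood at 2.48, 2.60, 2.46 and 2.58 in control, 2.23, 2.38, 2.05 and 2.62 after C60, and 3.18, 3.18, 3.66 and 3.00 after NiO. NiO was then above every other array of that time.

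C5ar1 rose after NiO by 0.63 (SE 0.18, adjusted p = 0.0264) at 3 days and by 0.73 (SE 0.17, adjusted p = 0.00584) at 1 month. The 3-day call was lost without control arrays 1 (0.55, adjusted p = 0.112) or 3 (0.63, adjusted p = 0.074), without NiO arrays 3 (0.52, adjusted p = 0.0876) or 4 (0.54, adjusted p = 0.0586), and without NiO arrays 2 and 3 together (0.52, adjusted p = 0.183). It was also lost with median scaling (0.45, adjusted p = 0.109) and with a fit of the compared groups alone (0.63, adjusted p = 0.17). The 1-month call held in all 30 settings run. Of the macrophage and monocyte markers, 9 of 10 were measured, and their summed level ranged from 445 to 550 in control and 557 to 1080 after NiO at 3 days, and from 525 to 592 and 544 to 662 at 1 month. That sum weighs the brightest markers most. Their mean log2 level was 2.25 to 2.44 in control and 2.71 to 2.86 after NiO at 3 days. At 1 month it was 2.07 to 2.40 in control and 2.50 to 2.98 after NiO, without overlap. Of these 9, 3 rose at 3 days and 5 at 1 month, among them Msr1, a scavenger receptor (2.79 and 1.22), and Cd68, a lysosomal protein of macrophages (0.66 and 0.99). The median log2 fold of the 9 was 0.07 at 3 days and 0.40 at 1 month. At 3 days Csf1r, Cd163, Cd14 and Adgre1 gave -0.60, -0.36, -0.15 and -0.06, none of which passed the test. Their part in the C5ar1 values was not tested. The features most like C5ar1 over the 21 arrays were Tbxas1 (r = 0.929), Acp5 (0.928) and Cog5 (0.928), and for C1qa they were Tnfrsf9 (0.954), Qsox1 (0.938) and Noxo1 (0.927).

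C4b-binding protein, which speeds the decay of the classical C3-cutting enzyme and serves factor I as a cofactor, is built from alpha chains (C4bpa) and a beta chain (C4bpb). C4bpa levels at 3 days were 2.59, 2.46 and 3.16 in control, 2.51 and 2.94 after C60, and 3.95, 4.70, 4.75 and 4.79 after NiO. All NiO arrays lay above control and C60, and array 1 stood below the other 3. At 1 month C4bpa was 3.09, 3.44, 3.00 and 3.09 in control, 3.02, 2.94, 3.06 and 3.09 after C60, and 4.19, 4.05, 4.65 and 4.19 after NiO. The separation from both groups was complete again. C4bpa rose after NiO by a log2 fold of 1.81 (SE 0.21, adjusted p = 2.08e-05) at 3 days and 1.12 (SE 0.19, adjusted p = 0.00101) at 1 month, calls that held in all 30 settings run. The difference between the times was -0.69 (SE 0.28, adjusted p = 0.0639), and it passed the test without control array 3 (-0.90, adjusted p = 0.0285) or NiO array 1 (-0.89, adjusted p = 0.00609) at 3 days and without NiO array 3 at 1 month (-0.82, adjusted p = 0.0366), and with normexp background correction (-0.76, adjusted p = 0.0348) or quantile normalization (-0.68, adjusted p = 0.0379).

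The beta chain gene C4bpb was called with C4bpa at 3 days and was not called at 1 month. Its levels at 3 days were -3.55, -3.86 and -3.76 in control, -3.43 and -3.35 after C60, and -2.18, -1.85, -2.14 and -1.84 after NiO. The 3 groups did not overlap. At 1 month C4bpb stood at -3.69, -2.72, -2.09 and -2.47 in control, -2.96, -3.33, -3.01 and -3.00 after C60, and -2.85, -2.99, -2.15 and -2.90 after NiO. The control arrays now spanned the levels of both exposed groups.

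The log2 fold of C4bpb after NiO was 1.72 (SE 0.27, adjusted p = 0.000454) at 3 days and 0.02 (SE 0.25, 95% interval -0.51 to 0.55, adjusted p = 0.963) at 1 month. The NiO effect thus differed between the times by -1.70 (SE 0.37, adjusted p = 0.00429). Over the 30 settings run, the 3-day fold ranged from 1.00 to 1.81 and this difference from -2.02 to -1.01, and both calls held. The control arrays rose by 0.98 between the times (SE 0.27, adjusted p = 0.00743), a comparison that called 11623 of 25224 features. The mean level after NiO was -2.00 at 3 days and -2.72 at 1 month. Without control array 1 of the 1-month group, C60 at 1 month was below control (-0.65, adjusted p = 0.027) and its effect differed between the times (-0.98, adjusted p = 0.04). With all control arrays these values were -0.33 (adjusted p = 0.346) and -0.67 (adjusted p = 0.296).

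Factor I, encoded by Cfi, cuts C3b and C4b in the presence of cofactors. At 3 days Cfi varied more between arrays than the other genes. Its levels were then 1.01, 2.73 and 2.91 in control, 2.30 and 1.15 after C60, and 3.06, 3.52, 2.46 and 4.24 after NiO. Control array 1 stood more than 1 log2 unit below the other control arrays, and the C60 pair lay more than 1 unit apart. The difference after NiO was 1.10 (SE 0.44, 95% interval 0.17 to 2.04, adjusted p = 0.0869) at 3 days, and 0.50 (adjusted p = 0.449) without control array 1. At 1 month the levels ranged from 3.01 to 3.44 in control, 2.75 to 3.39 after C60 and 3.04 to 4.16 after NiO, a difference of 0.38 for NiO (SE 0.41, adjusted p = 0.492).

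**Figure D3:**
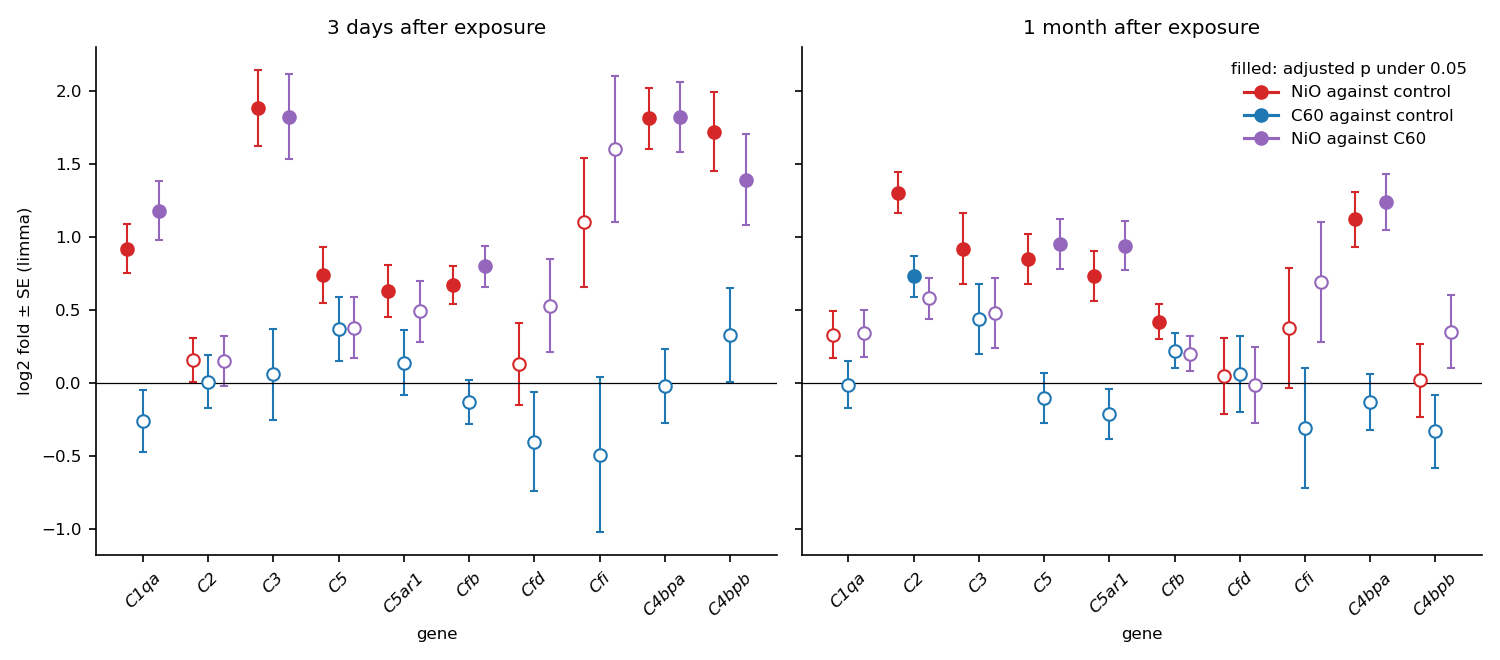
Log2 fold with its SE for each of the 10 genes, NiO against control in red, C60 against control in blue and NiO against C60 in purple, at 3 days (left) and 1 month (right); filled circles passed the limma test at an adjusted p under 0.05 over all features and open circles did not. Filled NiO circles lie above 0 in both panels, and the only filled C60 circle is C2 at 1 month.

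C60 was set against NiO to see how far the particles differed. At 3 days 5 of the 10 genes were higher after NiO than after C60, where 5.01% of all features were called higher. They were C4bpa (1.82, SE 0.24, adjusted p = 0.000236), C3 (1.82, SE 0.29, adjusted p = 0.00135), C4bpb (1.39, SE 0.31, adjusted p = 0.0124), C1qa (1.18, SE 0.20, adjusted p = 0.00189) and Cfb (0.80, SE 0.14, adjusted p = 0.00314). C4bpb was lost without C60 array 1 (1.35, adjusted p = 0.121) or 2 (1.42, adjusted p = 0.0704) and Cfb without C60 array 1 (0.69, adjusted p = 0.0793), each of which leaves 1 C60 array that is assumed to vary like the other groups. C4bpb was also lost with normexp background correction (0.72, adjusted p = 0.0502) and without NiO arrays 2 and 3 together (1.38, adjusted p = 0.0581). Of the 5 genes, a fit of the compared groups alone called only C3, where it called 0.163% of all features higher. All 4 NiO arrays lay above both C60 arrays for 7 of the 10 genes, against 14.6% of all features. Cfi differed by 1.60 (SE 0.50, adjusted p = 0.0598), and passed the test without control array 1 (1.60, adjusted p = 0.0295) or without NiO array 1 (1.68, adjusted p = 0.0304) or 3 (1.88, adjusted p = 0.0402). C5ar1 differed by 0.49 (SE 0.21, adjusted p = 0.142) and passed without NiO array 1 (0.65, adjusted p = 0.018) and with all 4 C60 arrays (0.61, adjusted p = 0.0158). C5 differed by 0.38 (SE 0.21, adjusted p = 0.26), and by 0.84 (adjusted p = 0.0219) with the mean over its 3 probes.

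At 1 month 3 of the 10 genes were higher after NiO than after C60, where 0.825% of all features were called higher. C4bpa differed by 1.24 (SE 0.19, adjusted p = 0.00296), C5 by 0.95 (SE 0.17, adjusted p = 0.00771) and C5ar1 by 0.94 (SE 0.17, adjusted p = 0.00864). C2 differed by 0.58 (SE 0.14, adjusted p = 0.0525), with every NiO array above every C60 array, and passed the test without any of NiO arrays 1, 2 or 4 of the 3-day group, which belong to neither group compared (adjusted p = 0.0473, 0.0326 and 0.0235). All NiO arrays lay above all C60 arrays for C2, C4bpa, C5 and C5ar1, 4 of the 10 genes, against 6.27% of all features. C3 differed by 0.48 (SE 0.24, adjusted p = 0.536) and Cfb by 0.20 (SE 0.12, adjusted p = 0.678). The NiO and C60 comparisons with control share their control arrays, so that the 1-month folds of C2, 1.30 and 0.73, rest on the same 4 control values.

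Between the times, 3 of the 10 genes had a different NiO effect, where 37.5% of all features were called in either direction: C2 was larger at 1 month, and C3 and C4bpb were smaller. For the C60 effect limma called 0 of the 10, where 10.4% of all features were called, and 1 of the 10 (C2) had an unadjusted p under 0.05. For NiO, leaving out array 1 of the 3-day group gave 5 calls, with C1qa (-0.67, adjusted p = 0.0301) and C4bpa added, where 52.0% of all features were called. Leaving out array 3 of the 1-month group gave 6, with C1qa (-0.78, adjusted p = 0.00863), C4bpa and Cfb (-0.40, adjusted p = 0.0296) added, where 32.5% of all features were called. Leaving out control array 2 of the 1-month group called C1qa (-0.68, adjusted p = 0.0449) and lost C3, where 30.3% of all features were called. Array 3 of NiO at 1 month was the highest of its group for 9 of the 10 genes. In the order of the 6 group means, the arrays of neighbouring groups overlapped in 41 of 50 pairs over the 10 genes. Neither of these counts was made over all features, so neither sets the 10 genes apart. NiO at 3 days was highest in the order for C1qa, C3, C4bpa, C4bpb, C5 and Cfb, and NiO at 1 month for C2, C5ar1 and Cfi.

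Of 40 other listed genes of the pathway, 31 were measured, and at 3 days after NiO 4 were called higher and 3 lower, with a median log2 fold of -0.02. These counts are near the shares of all features, 11.0% higher and 7.81% lower. Those higher were Mbl1, a lectin that starts the lectin pathway (1.36, SE 0.22, adjusted p = 0.000542), the C3a receptor C3ar1 (1.04, SE 0.15, adjusted p = 0.000249), Itgb2, the beta chain of the complement receptors 3 and 4 (0.85, SE 0.16, adjusted p = 0.00181), and C1qb, the B chain of C1q (0.68, SE 0.11, adjusted p = 0.000456). C1qc, the third chain, differed by 0.41 (SE 0.16, adjusted p = 0.0788). Vtn, the inhibitor vitronectin (-0.52, SE 0.17, adjusted p = 0.0384), Masp1, a protease of the lectin pathway (-0.51, SE 0.17, adjusted p = 0.0449), and Vsig4, a macrophage receptor for C3 fragments, were lower. Vsig4 was well above background on 1 of 4 NiO arrays at 3 days.

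At 1 month after NiO, 4 of the 31 were higher and 3 lower, with a median of 0.11, while 11.9% of all features were higher and 18.9% lower. C4a, Cfp, which encodes properdin, the stabiliser of the alternative enzyme (0.82, SE 0.19, adjusted p = 0.00594), Fcna, a ficolin (0.67, SE 0.16, adjusted p = 0.00588), and Cpn1, the enzyme that trims C3a and C5a (0.60, SE 0.11, adjusted p = 0.00141), were higher. Cd46, a cell-surface regulator, was lower (-0.86, SE 0.24, adjusted p = 0.0145). Vsig4 had no NiO array well above background, and control was at least 7.32-fold higher (adjusted p = 3.31e-05). Masp2 was not well above background after NiO either, and control was at least 2.78-fold higher (adjusted p = 0.00148). It is among the 3 counted as lower. Masp2 was well above background only in the 1-month control group, and it passed the filter through that group alone. Its call therefore rests on the group that let it in and is no support for a difference. After C60, Itgb2 was higher at 3 days (1.02, SE 0.19, adjusted p = 0.00341). At 1 month Fcnb (0.80, SE 0.27, adjusted p = 0.0436) and Cpn1 (0.59, SE 0.11, adjusted p = 0.00255) were higher after C60, Cd46 was lower (-0.96, SE 0.24, adjusted p = 0.0137), and Masp2 was at least 2.89-fold higher in control (adjusted p = 0.000171). The limit given for Masp2 after NiO holds for C60 as well.

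**Figure D4:**
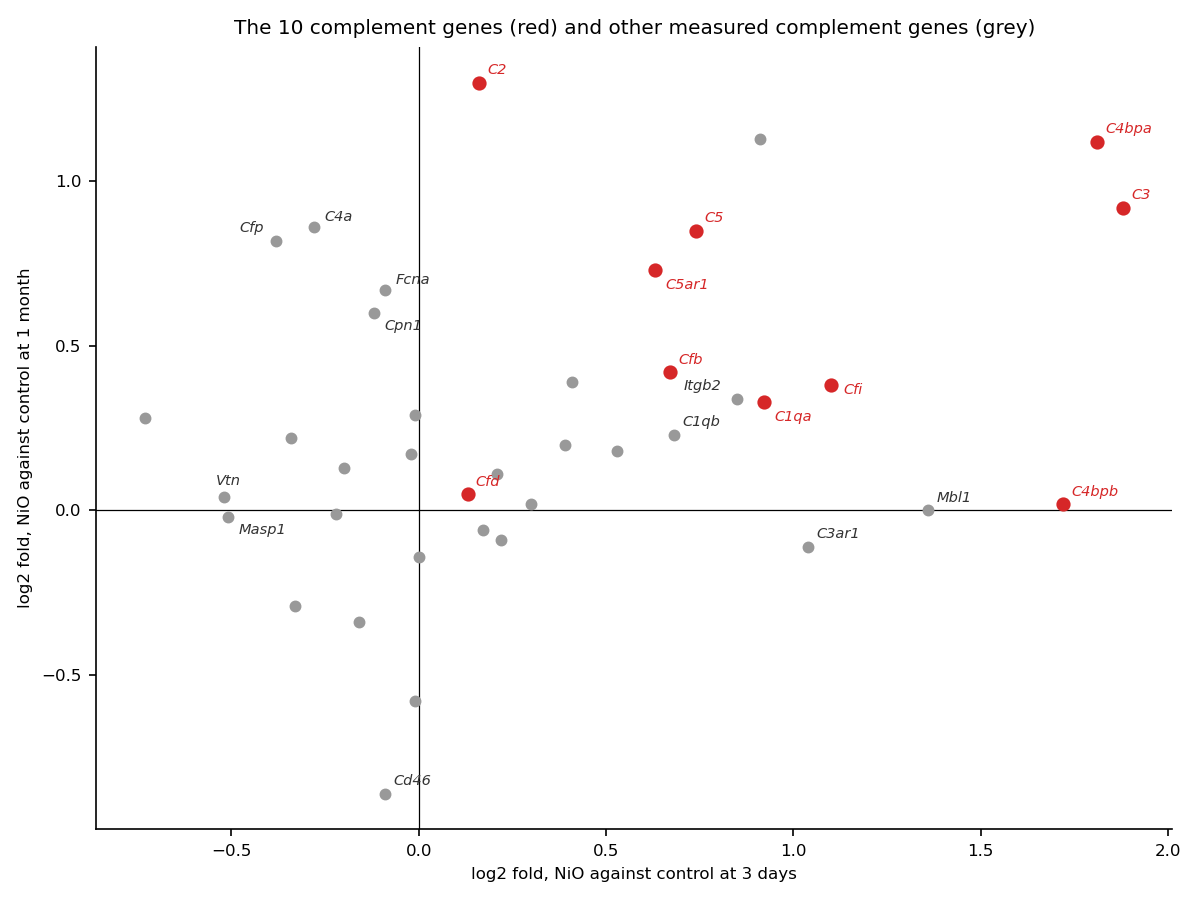
Log2 fold of NiO against control at 3 days (horizontal) and 1 month (vertical) for the 10 genes (red) and 29 other measured complement genes (grey); names are given for the 10 genes and for others that passed the test at either time. Masp2 and Vsig4 are left out because they have only a bound. C3, C4bpa and C4bpb lie farthest to the right, at 1.88, 1.81 and 1.72, and C2 lies highest, at 1.30.

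Liver-made plasma proteins were looked at because most complement of the blood comes from the liver. Of 7 measured liver cell markers of 10, Hp, haptoglobin (0.71, SE 0.17, adjusted p = 0.00864), and Tf, transferrin (0.81, SE 0.17, adjusted p = 0.00358), were higher at 3 days after NiO, and Hp (0.53, SE 0.15, adjusted p = 0.0163) at 1 month. Their summed level was 11.0 to 11.9 in control and 15.5 to 20.3 after NiO at 3 days. Alb, which defines liver cells, differed by 1.69 (SE 0.65, adjusted p = 0.075) at 3 days and by -1.39 (SE 0.60, adjusted p = 0.0866) at 1 month. Of 10 alveolar type II markers, 2 were higher at 3 days and 4 at 1 month, Lamp3 at both (0.77 and 0.59). The part of any of these lists in the complement values was not tested.

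Promoter sequences of 7 of the 10 genes were matched by symbol in RefSeq (assembly GRCr8, 250 bases before to 50 after the gene's start). They were searched on both strands for 4 motifs: the NF-kB consensus, STAT (TTCNNNGAA), C/EBP (TTNNGNAAT) and ISRE (GAAA, any 2 bases, GAAA). STAT was found in 2 of the 7 (C1qa and C4bpb), beside 8.87% of 33469 promoters of the same length, and C/EBP in 1 (C3), beside 12.3%. The NF-kB consensus (4.18% of all promoters) and ISRE (3.92%) had no match in these windows. The windows with a match are printed, with the match in capitals. They belong to genes called higher at 3 days after NiO, as were C4bpa and C5, whose windows held no match. C3 (chr9:2201290-2201589, minus strand) holds the C/EBP match starting 104 bases before the gene's start, C4bpb (chr13:44683732-44684031, minus strand) a STAT match 156 bases before it, and C1qa (chr5:154419884-154420183, minus strand) a STAT match 90 bases before it. No match overlapped another motif, and a match describes letters, not a bound site.
C3: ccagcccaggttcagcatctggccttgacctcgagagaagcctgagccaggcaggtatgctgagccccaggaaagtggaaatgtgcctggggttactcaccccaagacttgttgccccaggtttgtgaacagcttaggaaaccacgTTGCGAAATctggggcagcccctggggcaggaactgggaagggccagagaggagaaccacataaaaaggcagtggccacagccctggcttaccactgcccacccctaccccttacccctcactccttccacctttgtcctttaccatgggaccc
C4bpb: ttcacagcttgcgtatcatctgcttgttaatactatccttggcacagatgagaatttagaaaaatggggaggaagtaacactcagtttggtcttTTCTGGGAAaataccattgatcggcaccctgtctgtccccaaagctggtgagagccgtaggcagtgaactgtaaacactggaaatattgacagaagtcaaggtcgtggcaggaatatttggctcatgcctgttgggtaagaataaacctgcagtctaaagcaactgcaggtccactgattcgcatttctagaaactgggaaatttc
C1qa: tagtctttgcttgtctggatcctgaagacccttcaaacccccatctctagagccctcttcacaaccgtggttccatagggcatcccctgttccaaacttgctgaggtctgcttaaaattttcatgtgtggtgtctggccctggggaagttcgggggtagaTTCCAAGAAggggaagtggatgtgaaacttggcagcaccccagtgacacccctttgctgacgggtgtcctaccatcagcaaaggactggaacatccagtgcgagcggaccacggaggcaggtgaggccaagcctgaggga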

How the data were processed

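Per the file headers, Feature Extraction 9.5.3.1 (protocol GE1-v5_95_Feb07) turned each 1-colour scan into spot intensity, with background subtracted in the processed signal. The authors' deposited value table holds a linear ratio per probe and group; how it was computed is not recorded in the labels or headers read here, and it served as a check. C60 at 3 days has 4 arrays and a label of n = 2. Arrays 1 and 2 rebuild the deposited column (median absolute log2 difference 0.00082, against 0.109 for all 4), so these 2 were used. Of all arrays read, these 2 had the highest negative-control signal (142.7 and 64.4). They also had the lowest share of spots well above background (57.4 and 60.7%). On arrays 3 and 4 the signal was 40.8 and 34.2 and the share 78.1 and 76.5%. Of 41012 probes, 28677 passed the filter (well above background throughout 1 group or more), giving 25224 features, with the brightest probe of a gene. limma 3.58.1 (R 4.3.3) was fitted once over 6 groups (15 residual and 2.31 prior degrees of freedom). A call is a Benjamini-Hochberg adjusted p under 0.05 over all features. On simulated data with the design of NiO against control at 3 days, 51% of 100 features changed by 1 log2 unit and 93% of 100 changed by 2 were recovered. There were 7 false calls among the unchanged ones of 25224 features. The simulated noise was independent between features, and far fewer features were changed than the 4745 called in the data. These rates therefore do not carry over to the data. All 10 genes are described in each of 8 comparisons; of 40 other complement genes, up to 4 called ones per direction with the largest fold are named, and the 3 named features most like C3, C1qa and C5ar1. C4a levels by group, C1qc, Alb, Lamp3, Msr1, Cd68 and Cxcr2 were named after their values were seen. The members and lists were chosen with earlier results of these data known. Alternatives covered background, scaling, probe filter and choice, the groups fitted, the C60 arrays, and each array left out; leaving out NiO arrays 2 and 3 together was added after seeing the data.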

Additional observations from a re-analysis of the deposited data

Results flagged for a closer look

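In groups of 4 arrays, 5 of 40 gene and group pairs had an array whose gap to the next one exceeded the 95% limit for its share of the group's range, which chance gives in about 1 of 20. C3 on NiO array 3 at 1 month was at 6.10, with the other 3 arrays at 4.70 to 4.81. C4bpa on NiO array 1 at 3 days was at 3.95, below 4.70 to 4.79 on the others. C4bpb on C60 array 2 at 1 month was at -3.33, below -3.01 to -2.96. Cfd and Cfi on C60 array 4 at 1 month were at 3.41 and 3.39, above 2.50 to 2.65 and 2.75 to 2.84 on the other arrays.

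The NiO effect differed between the times by the test of the difference for C2 (1.14), C3 (-0.96) and C4bpb (-1.70). In that comparison 37.5% of all features were called. For C2 and C4bpb the control arrays differed between the times as well, by -0.91 and 0.98, as they did for 11623 of 25224 features.

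C60 arrays 3 and 4 at 3 days entered only the setting with all 4 C60 arrays. In them C4bpb had a mean of -2.91, above the control range of -3.86 to -3.55. Cfi had a mean of 3.34, above 1.01 to 2.91. Cfi was at 2.30 and 1.15 on the arrays of that group that were used.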

How the results depend on the processing

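No value changed its sign with a call under any alternative: 2349 values kept their side of the threshold or stayed within the spread, 39 passed it anew, 38 no longer passed it, and 14 moved by more than 1 SD, all of the last from the deposited table. For C60 against control at 1 month, median scaling called 3 genes (C2, C3, Cfb) in place of 1, where the share of all features called higher went from 7.29% to 26.6%. Leaving out single arrays gave 1 to 2 calls in either direction, where 9.9 to 28.4% of all features were called. For NiO against C60 at 3 days, a fit of the compared groups alone called 1 in place of 5 (0.163% of all features higher, in place of 5.01%), and leaving out single arrays gave 3 to 7, the last without NiO array 1, where 17.6% of all features were higher. For the NiO effect between the times, leaving out single arrays gave 2 to 6 calls, where 28.7 to 52.0% of all features were called. For the C60 effect between the times, 1 gene (C2) in place of 0 was called with median scaling, with probes well above background on every array, with a fit of the compared groups alone, with all 4 C60 arrays and without NiO arrays 2 and 3, and leaving out single arrays gave 0 to 1. Scaling moved the median of all features: for NiO against control at 1 month it was -0.12, 0.02 with quantile normalization and 0.21 with median scaling. The share of called features that were higher at 3 days after NiO was 58.5%, 45.6% with quantile normalization and 34.6% with median scaling, and at 1 month it was 38.7%, 55.5% and 77.5%. No paired analysis was possible because the labels give no replicate numbers that groups share. The 10 genes' main probes stood well above background, but the size of the C4bpb folds depended on how background was handled. With normexp background correction its difference between NiO and C60 at 3 days was 0.72 in place of 1.39.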
